A study of Homo sapiens with 38 samples.

Results

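The 45 interferon-stimulated genes described here were taken by symbol: each row of the deposited expression tables whose Ensembl identifier maps to a chosen symbol was kept. All 45 symbols were found among the 60252 genes in the tables. By function they fall into 9 groups, from the factors that carry the interferon signal to the antiviral proteins that it induces.

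Interferons are secreted proteins that cells release after sensing foreign or misplaced nucleic acid. Type I interferons, such as interferon beta, and type III interferons, the lambda family, bind different receptors, but both activate the kinases JAK1 and TYK2, which phosphorylate STAT proteins. STAT2 and IRF9 are parts of the complex ISGF3, which binds the interferon-stimulated response element in the promoters of target genes. Epithelial cells, the prostate's included, can both make and answer these ligands, and many of the induced proteins cut, trap or mark viral RNA and protein.

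The study sequenced the RNA of 36 libraries from a pair of human prostate lines, to learn what loss of the 7p15.2 region, which carries prostate cancer risk variants, or forced HOXA13, a homeobox transcription factor, does to the transcriptome. RWPE-1 cells are immortalized epithelium of a normal prostate, while C4-2B cells are tumour cells that descend from LNCaP. Of RWPE-1, 3 flasks were transfected with a HOXA13 expression vector and 3 with the matching eGFP plasmid (genotype labelled wild type). The cells of both were taken at 48 hours, keeping the brightest 10% for eGFP. Another 7 RWPE-1 libraries came from cells with the 7p15.2 risk region deleted, and 5 came from wild type controls. The labels give genome editing as the treatment of the deletion and of the control libraries alike. Of C4-2B, a tetraploid line, 3 deletion lines (m, ld9 and le5) and 3 wild type control lines gave 3 libraries each. The deletion lines are clones made in 2 rounds of editing from 2 partly edited colonies, so some of the 3 share a parent colony. The labels do not say if the edited RWPE-1 libraries are different clones or cultures, so p-values for them rest on a spread over libraries that may be technical.

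The expression values are TPM, transcript shares corrected for transcript length, so that levels can be set side by side between genes. They carry no counts, so the depth of each library is unknown. Between 13661 and 15256 genes reached 1 TPM per library. HOXA13 itself had 684 to 842 TPM in HOXA13-transfected cells, against 1.79 to 3.77 TPM in eGFP cells. In RWPE-1 it had 5.27 to 10.1 TPM in deletion libraries, against 0.65 to 2.41 TPM in controls. The basal prostate markers fixed for RWPE-1 were present (8 of 8 reached 1 TPM in every RWPE-1 group), and so were all 9 luminal markers in C4-2B. The immune list summed to 174 to 207 TPM in HOXA13 cells, 139 to 165 TPM in eGFP cells, 22.4 to 53.9 TPM in deletion libraries and 11.7 to 61.04 TPM in controls. Most of it was CD68, a lysosomal protein, while the leukocyte gene PTPRC was listed at 0 in the transfected cells and the controls. The fibroblast and endothelial list stayed at or below 23.2 TPM in RWPE-1 and at or below 19.9 TPM in C4-2B. Library 1 of C4-2B control line 3 stood apart, with 28.4% of its TPM in mitochondrially encoded genes. Libraries 2 and 3 of that line had 16.6% and 15.3%, against 10.8% to 12.7% in control lines 1 and 2. The line's libraries had 13661, 14335 and 14543 genes at 1 TPM, against 14619 or more in all other C4-2B libraries.

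Promoters were examined because the members moved together over libraries. RefSeq promoter sequences (GRCh38.p14, 250 bases before to 50 after each gene's start) were held for 37 members. The core of the interferon-stimulated response element, GAAA, any 2 bases and GAAA again, on either strand, was in 24 of these 37 (64.9%), against 3.65% of 27305 promoters. The STAT core TTCNNNGAA, which reads the same on both strands, was in 11 of 37 (29.7%), against 7.88% of all promoters. The pair of motifs may overlap each other, and a match describes letters, not a bound site. The windows shown are of 50 bases that lie before the gene start, each read along the gene's own strand. They were picked among members with a match. ISG15, IFIT1, BST2 and IFI27 had high levels in transfected cells, and IFI44L had levels there that lay under those of some controls. LGALS3BP, EPSTI1 and IRF1 passed the test for the deletion. SP110, which also passed it, and RSAD2, high in transfected cells, had no match of either motif and are not shown. Capitals mark that core on either strand, except in IRF1, where they mark TTCNNNGAA. The windows are at chr1:1013370-1013419 (plus strand) for ISG15, chr10:89392500-89392549 (plus) for IFIT1, chr19:17405725-17405774 (minus) for BST2 and chr14:94110621-94110670 (plus) for IFI27. Those of the others are at chr1:78620355-78620404 (plus) for IFI44L, chr17:78979952-78980001 (minus) for LGALS3BP, chr13:42992262-42992311 (minus) for EPSTI1 and chr5:132490868-132490917 (minus) for IRF1.
ISG15: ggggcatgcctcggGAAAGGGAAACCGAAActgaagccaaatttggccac
IFIT1: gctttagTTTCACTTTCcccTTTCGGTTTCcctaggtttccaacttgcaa
BST2: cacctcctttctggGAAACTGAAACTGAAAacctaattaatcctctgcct
IFI27: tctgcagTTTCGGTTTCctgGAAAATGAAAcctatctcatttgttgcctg
IFI44L: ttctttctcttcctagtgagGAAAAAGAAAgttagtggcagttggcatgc
LGALS3BP: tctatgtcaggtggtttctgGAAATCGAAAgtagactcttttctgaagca
EPSTI1: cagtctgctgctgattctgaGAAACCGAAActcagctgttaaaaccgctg
IRF1: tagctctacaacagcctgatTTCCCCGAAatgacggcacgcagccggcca
ISG15, IFIT1, BST2 and IFI27 each hold a pair of matches within the window, overlapping in ISG15 and BST2. The median log2 fold change of eGFP cells over controls was 2.68 for the 24 members with the core and 2.10 for the 13 without it. For deletion over control it was -1.31 for 22 tested members with the motif and -1.51 for 11 without it.

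Each library was scored by the mean log2(TPM + 1) of the 45 members. The score was 7.45, 7.61 and 7.50 in HOXA13 cells and 7.49, 7.51 and 7.56 in eGFP cells. In deletion libraries it had a lowest value of 2.70, a median of 3.20 and a highest of 4.25, and in RWPE-1 controls it was 6.51, 6.44, 2.32, 5.35 and 3.35 for controls 1 to 5. The controls thus spread over 4.20 log2 units, more than the deletion libraries (1.55) and the transfected libraries (0.16 for HOXA13 and 0.07 for eGFP). In C4-2B the line means were 1.81, 1.89 and 1.79 for deletion lines m, ld9 and le5, against 1.76, 1.82 and 1.49 for control lines 1, 2 and 3. All RWPE-1 libraries scored above all C4-2B libraries, though the tables were normalized separately.

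**Figure D1:**
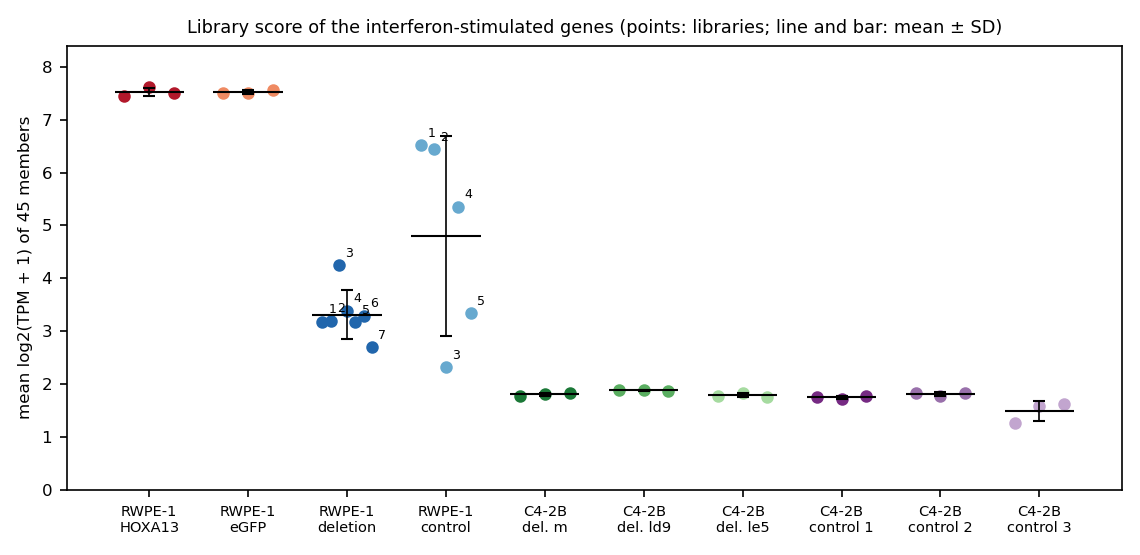
Mean log2(TPM + 1) of the 45 members in each of the 36 libraries, by group, with points for libraries (numbered for RWPE-1 deletion and control), a line for the group mean and a bar of 1 SD. HOXA13 and eGFP cells lie between 7.45 and 7.61, deletion libraries between 2.70 and 4.25, and the 5 controls run from 2.32 to 6.51.

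Summed over members, the share of all TPM was 2.01% to 2.10% in HOXA13 cells and 1.92% to 1.97% in eGFP cells. It was 0.121% to 0.254% in deletion libraries, against 0.943%, 0.896%, 0.0964%, 0.483% and 0.150% in controls 1 to 5. All 45 members reached 1 TPM in each transfected library and in controls 1 and 2. Control 3 had 33 members at that level, fewer than any deletion library (37 to 44). In C4-2B the share was 0.0330% to 0.0357% in deletion lines and 0.0160% to 0.0368% in control lines, with 25 to 30 and 22 to 28 members at 1 TPM.

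The 5 RWPE-1 controls did not hold the members at a common level. IFITM3, a membrane protein that blocks virus entry and the most abundant member in both lines, had 2323, 2469.7, 459, 1521 and 557 TPM in controls 1 to 5. MX1, a GTPase that traps viral nucleocapsids, had 427, 403, 1.66, 129 and 5.71 TPM, a 257-fold range. STAT2 had 103, 90.3, 18.1, 52.1 and 29.1 TPM, and IRF1, a transcription factor, had 47.7, 46.9, 12.6, 34.8 and 25.8 TPM. Controls 1 and 2 were high, control 4 was between, and controls 3 and 5 were low in each of these genes.

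That order was shared by almost the whole set. It was read from the members' own values, so the counts that follow describe them and test nothing. Controls 1 and 2 above 4, 4 above 5 and 5 above 3 held for 41 of 45 members, against 4.40% of genes at 1 TPM in at least 3 controls. Control 3 had the lowest value for 43 of 45 members, against 24.6% of those genes. Control 1 had the highest for 31 members, control 2 for 13 and control 4 for 1, LGALS3BP. The SD over controls had a median of 1.87 log2 units for 44 members at that level, against 0.20 for all such genes, and 43 of the 44 lay above the 95th percentile of 0.69. LGALS3BP, a secreted glycoprotein, was the member outside that range, with 299, 278, 122, 304 and 209 TPM in controls 1 to 5 and an SD of 0.55. In bulk RNA, fewer responding cells and less RNA per responding cell cannot be told apart. The labels give no batch, clone or date for these libraries, so whether any of these goes with the order was not tested. Mitochondrially encoded genes took 13.7% to 16.2% of TPM in the controls and 15.0% to 16.5% in deletion libraries.

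Among the 7 deletion libraries, number 3 was the highest for 41 of 45 members, against 18.5% of genes at 1 TPM in at least 3 of them, and number 7 was the lowest for 35, against 21.1%. IFI27, a mitochondrial protein strongly induced by interferon, had 132 TPM in deletion library 3 and 3.11 to 20.9 TPM in the other 6. IFI6, another induced mitochondrial protein, had 66.8 TPM in library 3 and 5.37 to 12.7 TPM elsewhere. All 7 deletion libraries were below controls 1, 2 and 4 for all 45 members. Against control 3 they were all above it for 35 members and all below it for none, and against control 5 they were all below it for 6 members and all above it for 3.

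**Figure D2:**
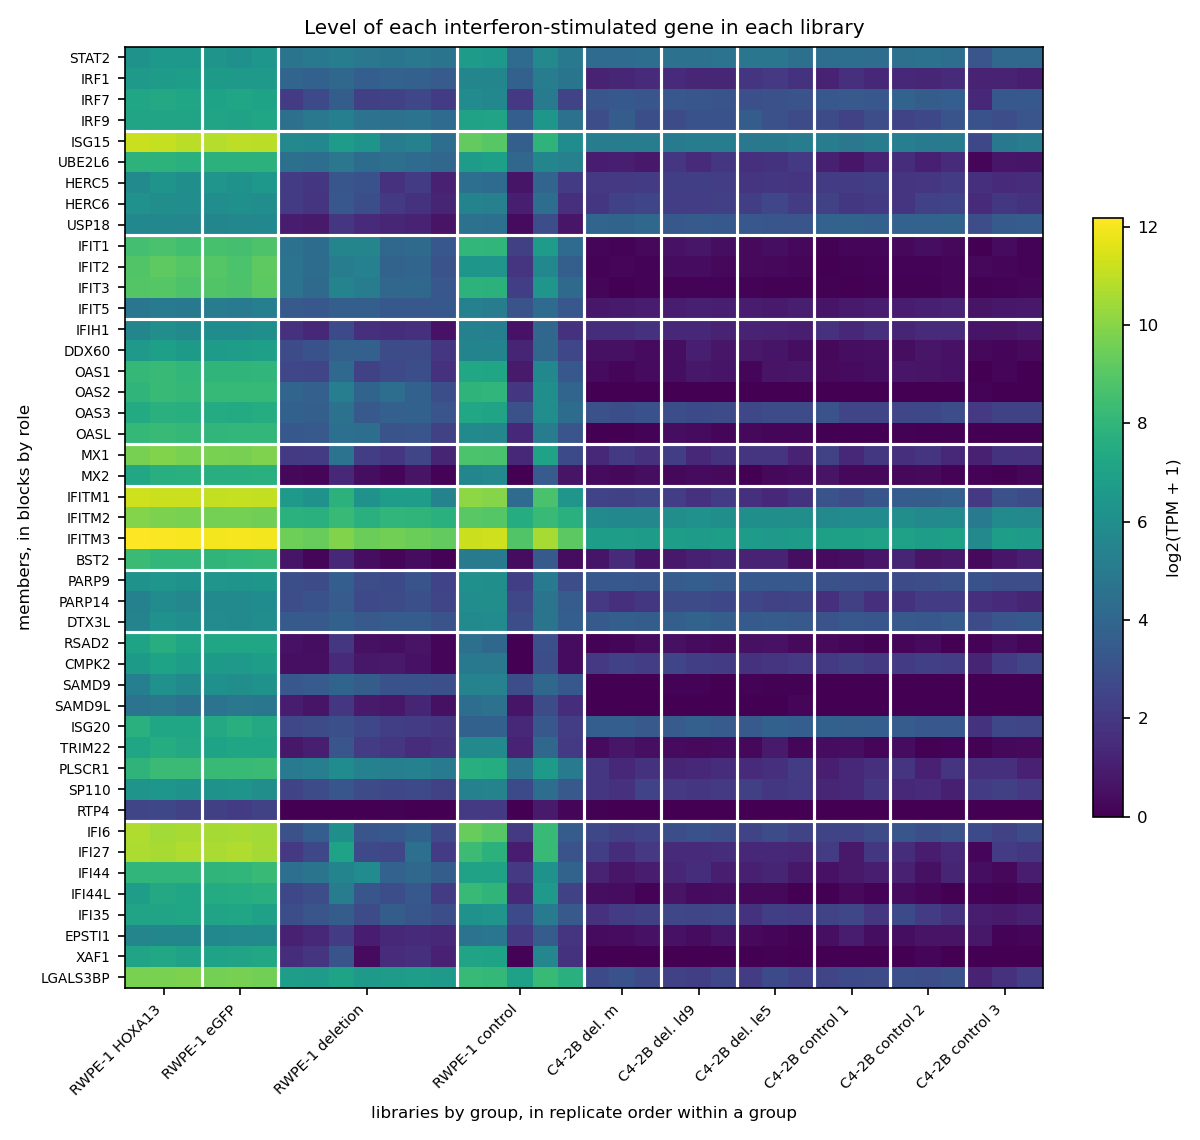
log2(TPM + 1) of each of the 45 members (rows, in blocks by role) in each of the 36 libraries (columns, by group). The 6 transfected RWPE-1 libraries are bright throughout, controls 1, 2 and 4 are brighter than controls 3 and 5 and than the 7 deletion libraries, and the C4-2B libraries are dark for most members, with IFITM3, IFITM2 and ISG15 the highest.

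Deletion of the risk region was compared with the controls by limma on log2(TPM + 1), so fold changes of low genes are understated, and a gene was called where the Benjamini-Hochberg adjusted p was below 0.05. Of the 45 members, 40 passed the filter of 1 TPM in at least 5 of the 12 libraries. IRF1, SP110, EPSTI1 and LGALS3BP fell, and no member rose. By count 4 of 40 fell, while 10.3% of all genes tested were called, 6.46% as higher and 3.86% as lower. All 40 fold changes were below 0, as were 38.2% of all genes, with 61.8% above 0, with a median of -1.37 for the members and 0.05 for all genes. No member's deletion and control libraries failed to overlap, against 4.24% of genes that lay wholly higher and 2.47% wholly lower. An unadjusted p under 0.05 was seen for 22 of 40 members, against 27.9% of genes.

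LGALS3BP had a lowest value of 92.6 TPM, a median of 105 and a highest of 133 in deletion libraries, against 299, 278, 122, 304 and 209 TPM in controls. All deletion libraries but number 3 lay below the lowest control. Its log2 fold change was -1.10 (SE 0.19, adjusted p = 0.00379). IRF1 had 10.2, 12.8 and 16.3 TPM (lowest, median and highest) in deletion libraries, against 47.7, 46.9, 12.6, 34.8 and 25.8 TPM in controls. Only control 3 overlapped with the deletion libraries, and the log2 fold change was -1.18 (SE 0.26, adjusted p = 0.0138). IRF1 lies on chromosome 5.

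EPSTI1, epithelial stromal interaction 1, had 0.90, 1.64 and 3.44 TPM (lowest, median and highest) in deletion libraries, against 24.2, 26.6, 3.11, 10.8 and 2.71 TPM in controls. Deletion library 3 was above controls 3 and 5, and the log2 fold change was -1.98 (SE 0.48, adjusted p = 0.0198). SP110, a nuclear body protein, had 4.23, 5.42 and 8.45 TPM in deletion libraries, against 40.3, 42.0, 5.75, 20.1 and 9.56 TPM in controls. The overlap was with control 3 alone, and the log2 fold change was -1.56 (SE 0.40, adjusted p = 0.0278). The call for SP110 was lost when deletion library 1, 5 or 6, or control 1, 2 or 4, was left out (adjusted p 0.0511 to 0.0671).

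Of the signalling factors, STAT2 (log2 fold change -0.79, adjusted p = 0.156), IRF9 (-1.08, 0.200) and IRF7, the amplifier of interferon production (-1.69, 0.105), did not pass. IRF7 had 3.31 to 10.9 TPM in deletion libraries, against 58.2, 49.8, 3.03, 32.9 and 4.61 TPM in controls, so control 5 lay among the deletion libraries and control 3 below them. The 5 genes of ISG15 conjugation did not pass either. ISG15, a ubiquitin-like modifier, had 20.2, 49.7 and 102 TPM (lowest, median and highest) in deletion libraries, against 603, 514, 11.9, 244 and 59.5 TPM in controls (-1.54, adjusted p = 0.244). USP18, which removes ISG15 from proteins and restrains the receptor, had a log2 fold change of -1.40 (adjusted p = 0.200).

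The IFIT family binds viral RNA, and its 4 members had log2 fold changes of -1.36 to -0.48, none called. IFIT1 had 8.75, 18.5 and 46.2 TPM in deletion libraries, against 264, 254, 3.88, 106 and 18.1 TPM in controls (-1.36, adjusted p = 0.345). Among the RNA sensors and the OAS enzymes, which make the activator of RNase L, OAS1 had a log2 fold change of -2.16 (adjusted p = 0.158) and IFIH1, the sensor MDA5, -1.79 (0.134). None of those 6 was called.

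MX1 had the largest fold change of the tested members, -3.31 (SE 1.19, adjusted p = 0.0938). It had 1.39, 3.54 and 23.9 TPM in deletion libraries, against 427, 403, 1.66, 129 and 5.71 TPM in controls. IFI6 (-2.76, adjusted p = 0.151) and XAF1, a pro-apoptotic partner of XIAP (-2.72, 0.126), followed, and IFI27 had -2.32 (0.285). The smallest were those of ISG20, an RNA exonuclease (-0.40, adjusted p = 0.538), IFITM2 (-0.41, 0.301) and IFIT2 (-0.48, 0.708). IFITM3 had -0.71 (0.251), and PARP14, a mono-ADP-ribosyltransferase, -1.63 (0.0594).

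MX2, BST2, RSAD2, CMPK2 and RTP4 were not tested for the deletion. BST2, also called tetherin, had 0.10 to 1.52 TPM in deletion libraries, against 31.7, 30.6, 0.34, 10.1 and 0.33 TPM in controls. RSAD2, the antiviral enzyme viperin, had 0.15 to 2.85 TPM in deletion libraries, against 21.8, 16.1, 0.01, 6.80 and 0.34 TPM in controls. MX2, CMPK2, a mitochondrial nucleotide kinase, and RTP4, a receptor transport protein, had the same layout, with deletion libraries below controls 1, 2 and 4.

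How many members were called turned on the controls used. Without control 3, 30 of the members fell, against 5.72% of all genes, and without control 5, 8 did, against 3.46%. With controls 1 and 2 as the only controls 40 members fell, against 7.66% of all genes, and the median was -3.11 for the members and 0.08 for all genes. Every deletion library lay below both of these controls for all 45 members, so the direction was fixed by that choice of controls. With controls 3, 4 and 5 as the only controls 1 member fell, against 4.6% of all genes, and the medians were -0.25 and 0.04. Without controls 3 and 5, a choice made after seeing the data, 40 fell, against 6.22% of all genes. The authors' deposited table for the deletion, made with DESeq2, calls 37 of the 45 lower and none higher, with a median log2 value of -0.82, and calls 9.37% of all its genes lower. In that table IRF1 had -1.15, SP110 -1.21, EPSTI1 -1.25 and LGALS3BP -1.09. Of all genes called in the comparison here 37.4% were lower, against 53.8% after median-ratio scaling and 47.3% after quantile normalization, while 4 and 5 members fell under those scalings.

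**Figure D3:**
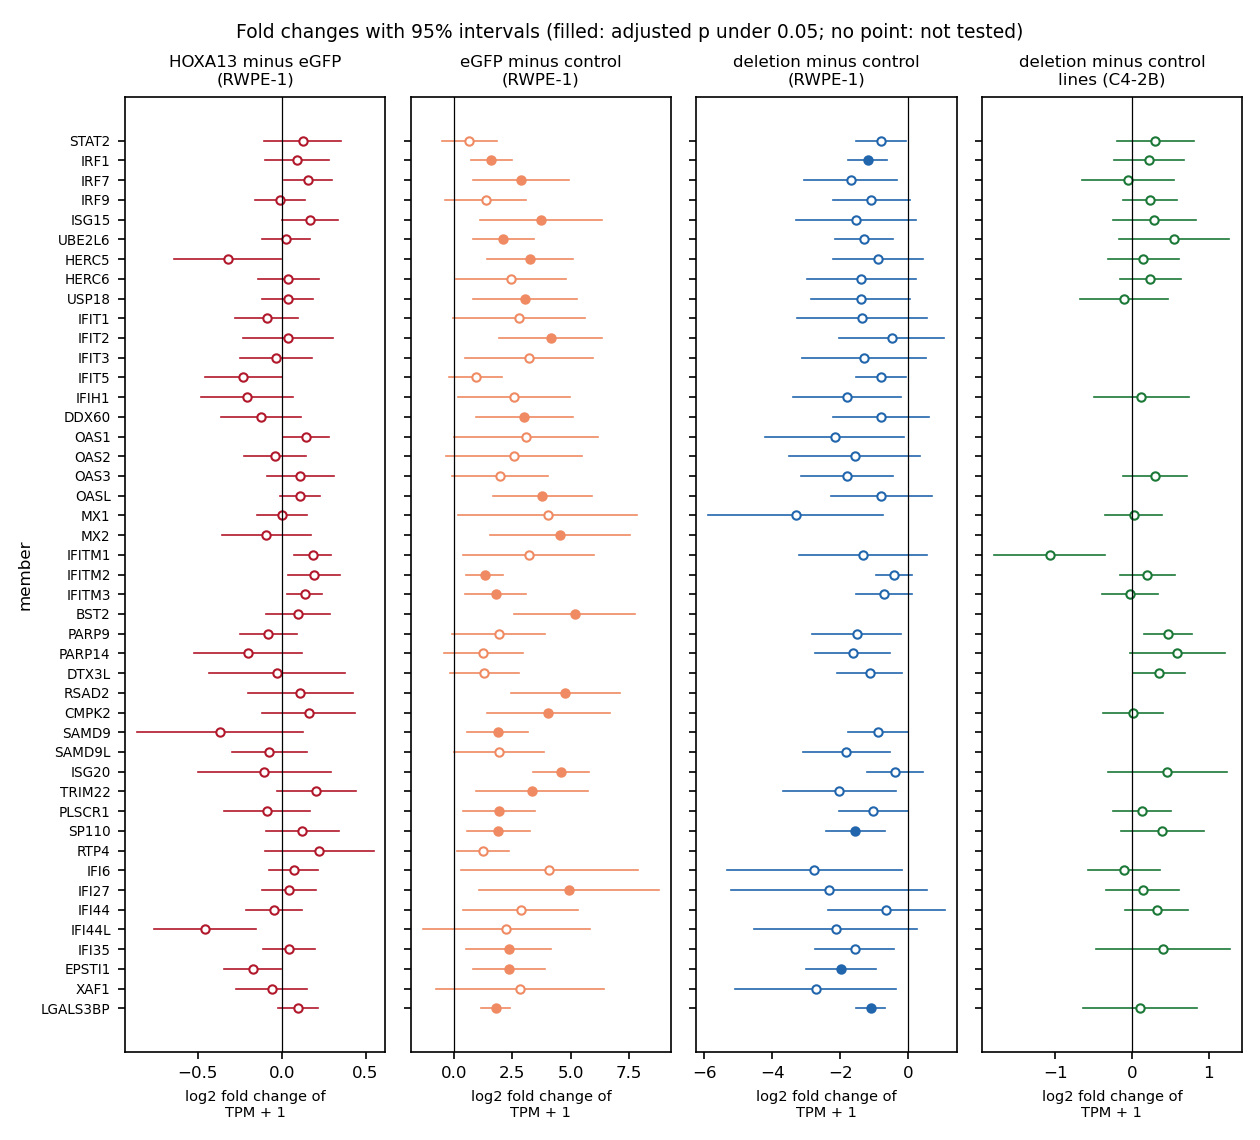
log2 fold change of TPM + 1 with its 95% interval for each member (rows) in the comparisons HOXA13 minus eGFP, eGFP minus control and deletion minus control in RWPE-1, and deletion minus control lines in C4-2B. Filled points have an adjusted p under 0.05: 0, 24, 4 and 0 members. The horizontal scales differ between panels.

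Other genes of the pathway were given by lists apart from the members. Of 11 genes for receptors and JAK-STAT signalling, none was called for the deletion. The receptor chains IFNAR1 (-0.27), IFNAR2 (0.09), IFNLR1 (0.18) and IL10RB (-0.11) and the kinases JAK1 (0.04) and TYK2 (-0.12) had adjusted p-values of 0.289 to 0.814. Of 13 tested nucleic acid sensors and adaptors, TRIM25 (-0.85, adjusted p = 0.00382), STING1 (-0.61, 0.0144) and TLR3 (-1.16, 0.0382) fell and MAVS rose (0.19, 0.0268). Of 10 tested interferon gamma targets 4 fell, the immunoproteasome genes PSMB10 (-0.61), PSMB9 (-1.60) and PSMB8 (-0.96) and the peptide transporter TAP1 (-1.04), with adjusted p-values of 0.00353 to 0.0485. Of 24 further interferon-induced genes tested, OGFR, LAP3 and PSME2 fell (-0.60, -0.69 and -0.57). None of the 6 tested brakes, such as SOCS proteins, was called. Of the 8 basal markers ITGB4, an integrin of the basement membrane, fell (-0.63), and no luminal, immune, fibroblast or endothelial marker was called.

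The ligands were barely detected outside the transfected cells. IFNB1, interferon beta, had 42.1, 34.5 and 56.7 TPM in HOXA13 cells and 36.6, 33.1 and 41.6 TPM in eGFP cells. It had 0 to 0.07 TPM in deletion libraries, against 0.12, 0.14, 0, 0.05 and 0 TPM in controls. IFNL1, interferon lambda 1, had 56.8, 52.9 and 60.3 TPM in HOXA13 cells and 52.6, 44.0 and 45.3 TPM in eGFP cells. It had 0 to 0.11 TPM in deletion libraries, against 0.06, 0.14, 0, 0.20 and 0 TPM in controls. IFNL2 and IFNL3, which are near-identical in sequence so that their shares are uncertain, had 16.7 to 18.9 and 12.3 to 14.0 TPM in transfected cells and at most 0.15 TPM in any other RWPE-1 library. IFNK, a keratinocyte interferon, had 2.90 to 6.03 TPM in HOXA13 cells and 5.67 to 8.66 TPM in eGFP cells. IFNA1 and IFNG were listed at 0 in every library. IFNE, an interferon of epithelia, was the exception: it had 1.16 to 1.69 TPM in HOXA13 cells and 1.43 to 1.86 TPM in eGFP cells, 5.99 to 7.31 TPM in deletion libraries and 10.7, 9.41, 5.00, 16 and 5.76 TPM in controls. The 10 ligands summed to at most 0.22 TPM in any C4-2B deletion library and 0.10 TPM in any C4-2B control library.

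**Figure D4:**
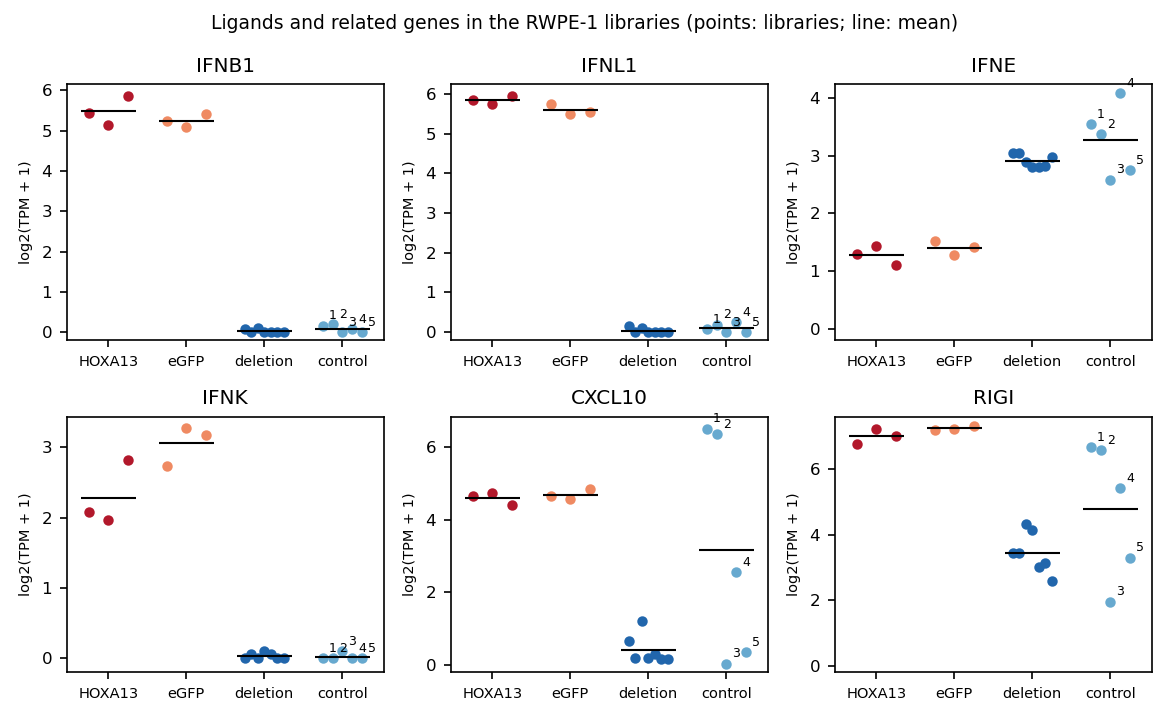
log2(TPM + 1) of IFNB1, IFNL1, IFNE, IFNK, CXCL10 and RIGI in each RWPE-1 library by group, with controls numbered and a line for the group mean. IFNB1 and IFNL1 are near 0 outside the transfected cells, also in controls 1 and 2, in which CXCL10 and RIGI are high.

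Set against the genome-editing controls, 24 of 45 members rose in eGFP-transfected cells, and the other 21 did not pass the test. The comparison is between experiments, so the transfection, the sort, the culture and any batch cannot be told apart. The background is wide: 47.1% of all genes were called, and 24.4% of all genes were called higher. None of the members fell, and 22.7% of all genes did. All 45 fold changes were above 0, as were 51% of all genes, with 49% below 0, and the median was 2.57 for the members and 0.02 for all genes. An unadjusted p under 0.05 was seen for 33 members, against 54.8% of genes. For 38 members all 3 eGFP libraries lay above all 5 controls, against 25.7% of genes, and for none below, against 22.9%. Without control 5, 15 members rose, against 24.3% of all genes, and without eGFP library 1, 2 or 3, 9 or 10 did, against 19.1% to 19.5%. In the same comparison the basal keratins KRT5 and KRT15 fell (-1.55 and -3.29) and LAMB3, a laminin chain, rose (2.79), with 6 of 8 basal markers called, and of the marker lists for other cells KRT8, CD68 and COL1A1 rose. Their part in the members' result was not tested.

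Of the members that rose, BST2 had the largest fold change, with 250.0, 263 and 277 TPM in eGFP cells, against 31.7, 30.6, 0.34, 10.1 and 0.33 TPM in controls (log2 fold change 5.18, SE 1.15, adjusted p = 0.00601). IFI27 had 1553, 1714 and 1465 TPM in eGFP cells, against 324, 226, 0.90, 307 and 7.52 TPM in controls (4.93, SE 1.71, 0.0411). RSAD2 had 139.7, 142 and 149 TPM in eGFP cells, against 21.8, 16.1, 0.01, 6.80 and 0.34 TPM in controls (4.77, SE 1.03, 0.00525). The groups did not overlap in any of these genes. ISG20 had 163, 204 and 164 TPM in eGFP cells, against 12.7, 12.7, 1.59, 8.74 and 3.56 TPM in controls (4.59, SE 0.53), and its adjusted p, 2.41e-04, was the lowest among members. MX2 (4.56), IFIT2 (4.14), CMPK2 (4.05), OASL (3.79), ISG15 (3.73) and TRIM22, an antiviral ubiquitin ligase (3.36), made up the rest of the 10 largest among the members that rose, with adjusted p-values of 0.00806 to 0.0285.

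By role, 2 of 4 signalling factors rose (IRF1, 1.60, and IRF7, 2.86), 4 of 5 conjugation genes (USP18 among them, 3.04), 1 of 4 IFIT genes and 2 of 6 sensors and OAS genes. Of the 2 MX genes 1 rose, of the 4 membrane factors 3 did (IFITM3, 1.78), of the 3 genes of the PARP9 complex none, and of 9 other effectors 7 and of 8 other induced genes 4 did (EPSTI1, 2.36). The values of IFIT1 (2.799, adjusted p = 0.0949), OAS1 (3.09, 0.0920), IFIH1 (2.57, 0.0733) and MX1 (4.02, 0.0798) were large but did not pass, and in each of them controls 1 and 2 lay nearest to the eGFP cells. The smallest fold changes were those of STAT2 (0.66, adjusted p = 0.324), IFIT5 (0.93, 0.160) and RTP4 (1.25, 0.0645), and IRF9 (1.36, 0.174) and PARP14 (1.26, 0.195) did not pass either.

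Beside the high controls alone, the members spread widely. The mean over the 6 transfected libraries was 13.6 times that of controls 1 and 2 for ISG20, 8.75 times for BST2, 7.93 times for RSAD2 and 5.82 times for IFI27. It was 1.03 times for DTX3L, 1.05 times for XAF1, 0.83 times for STAT2 and PARP14 and 0.59 times for IFI44L. In STAT2, PARP14 and IFI44L all 6 transfected libraries lay below both controls. With those 2 controls as the only ones, a choice made after seeing the data, 36 members rose and 2 fell, against 28.6% and 24.3% of all genes, with a median of 0.98 for the members and 0.03 for all genes. STAT2 was one that fell (-0.32, adjusted p = 0.0390). CXCL10, a chemokine that interferon gamma and other interferons induce, was higher still in these controls. It had 20.2 to 25.5 TPM in HOXA13 cells and 22.7 to 27.6 TPM in eGFP cells, 0.12 to 1.32 TPM in deletion libraries, and 89.6, 80.0, 0.03, 4.91 and 0.28 TPM in controls.

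Of the other genes of the pathway, 5 of the 6 tested ligands rose in eGFP cells over controls and IFNE fell (-1.87, adjusted p = 0.00165). In controls only 1 ligand, IFNE, reached 1 TPM, so the other 5 passed the filter through the eGFP libraries alone. The direction of those 5 was fixed by the filter, and their tests add no support. The log2 fold changes of IFNB1 (5.16, adjusted p = 2.35e-08) and IFNL1 (5.48, 2.13e-08) depend on the added 1, because the controls are near 0. Of 11 receptor and JAK-STAT genes JAK1 (0.70) and IFNLR1 (0.51) rose and IFNAR1 fell (-0.77). Among 14 tested sensors and adaptors TICAM1 (1.73), ZBP1 (1.75), IRF3 (0.86) and DHX58 (2.27) rose and MAVS (-0.77) and TBK1 (-0.35) fell. ZBP1 too passed the filter through the eGFP libraries alone. Of 7 brakes SOCS3 (1.50), SOCS1 (0.93) and TRIM21 (1.93) rose. Of 16 interferon gamma targets 12 rose, with the lowest adjusted p-values for GBP5 (3.17), WARS1 (1.19) and GBP2 (2.01), and of 29 other interferon-induced genes 20 rose, among them ZC3HAV1 (2.03), OGFR (1.27), MOV10 (1.00) and HSH2D (3.42). No gene of the last 2 lists fell.

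HOXA13-transfected cells and eGFP-transfected cells held the members at nearly the same levels, and no member was called, against 0.0135% of all genes. Of 45 members 25 had a fold change above 0 and 20 below 0, as did 57.2% and 42.8% of all genes, and the median was 0.04 for the members and for all genes. An unadjusted p under 0.05 was seen for 10 of 45, against 13.5% of genes. The groups did not overlap for 7 members that were higher and 3 that were lower, against 12.4% and 8.68% of genes. The width of the 95% intervals differed between members. On the log2 scale that of MX1 ran from -0.15 to 0.15 and that of IRF9 from -0.16 to 0.14. Those of SAMD9 (-0.86 to 0.13), IFI44L (-0.76 to -0.15) and DTX3L (-0.43 to 0.38) were wider. The intervals of the 10 members with an unadjusted p under 0.05 did not span 0.

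IFI44L had the lowest value, with 112, 159 and 145 TPM in HOXA13 cells, against 179, 185 and 203 TPM in eGFP cells (-0.46, SE 0.13, adjusted p = 0.268). SAMD9 (-0.37, adjusted p = 0.478) and HERC5, the ligase for ISG15 (-0.32, 0.367), were next. The groups overlapped in SAMD9 and HERC5 but not in IFI44L. RTP4 (0.22, adjusted p = 0.509), TRIM22 (0.20, 0.418) and IFITM2 (0.19, 0.309) had the highest. Every HOXA13 library was above every eGFP library for IFITM1, with 2530.4, 2378 and 2363 TPM in HOXA13 cells, against 2111, 2178 and 2109 TPM in eGFP cells (0.18, SE 0.05, adjusted p = 0.246), and also for IFITM2 and IFITM3. The 3 IFITM genes resemble each other in sequence, so that reads may be shared between them.

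The other anchors of the roles had fold changes of -0.21 to 0.17 between HOXA13 and eGFP cells: STAT2 0.12, IRF1 0.09, IRF7 0.15, ISG15 0.17, USP18 0.04, IFIT1 -0.09, OAS1 0.15, IFIH1 -0.21, IFITM3 0.14, BST2 0.10, PARP14 -0.20, RSAD2 0.11, IFI27 0.04 and EPSTI1 -0.17. No gene of the other lists was called, the ligands included, with IFNB1 at 0.23 (adjusted p = 0.595) and IFNL1 at 0.26 (0.327). The authors' deposited table calls IFITM1 higher (0.18) and IFIT5 (-0.23), IFI44 (-0.28), IFI44L (-0.32) and XAF1 (-0.26) lower, and 12.1% of its genes in all.

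In C4-2B the members were low. IFITM3 (51.4 to 127 TPM), IFITM2 (30.9 to 69.5 TPM) and ISG15 (5.24 to 35.5 TPM) were the most abundant, and 15 of 45 members stayed below 1 TPM in every library. IFIT1 had 0.03 to 0.68 TPM, OAS1 0 to 0.74 TPM and RSAD2 0.02 to 0.52 TPM. For 22 members every C4-2B library lay below every RWPE-1 library. Not all members followed that order: USP18 had 6.25 to 16.1 TPM in C4-2B, above its 0.58 to 2.84 TPM in RWPE-1 deletion libraries.

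With the line as the replicate, 27 members were tested and none was called between deletion lines and control lines, as was 0% of all genes. Of the 27, 22 had fold changes above 0 and 5 below 0, with a median of 0.22, against 66.3% of genes above 0, 33.7% below 0 and a median of 0.07. Without control line 3 the median was 0.09. In means of log2(TPM + 1), the groups of lines did not overlap for 4 members that were higher (HERC6, OAS3, PARP9 and DTX3L) and 1 that was lower (IFITM1), against 7.11% and 2.38% of genes. An unadjusted p under 0.05 was seen for 3 members, against 3.57% of genes.

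PARP9, an inactive-type ADP-ribosyltransferase, averaged 8.89, 10.7 and 9.23 TPM in deletion lines m, ld9 and le5, against 6.86, 6.48 and 6.62 TPM in control lines 1, 2 and 3 (log2 fold change 0.47, SE 0.13, unadjusted p = 0.00848, adjusted p = 0.993 from limma). DTX3L, its ubiquitin ligase partner, averaged 11.0, 12.5 and 10.1 TPM in deletion lines, against 8.34, 9.49 and 7.85 TPM in control lines (0.35, SE 0.14). These genes lie head to head on chromosome 3 and share a promoter region. PARP14 averaged 2.68, 5.83 and 4.74 TPM in deletion lines, against 2.76, 3.09 and 1.81 TPM in control lines, and line m overlapped with the controls (0.59, SE 0.26). IFITM1 averaged 4.53, 3.15 and 2.02 TPM in deletion lines, against 7.47, 11.3 and 5.38 TPM in control lines, with no overlap (-1.07, SE 0.31, adjusted p = 0.993). The authors' deposited table calls OAS3 (0.44), PARP9 (0.31), PARP14 (0.86), DTX3L (0.36) and IFI44 (0.86) higher and IFITM1 (-1.64) lower, and calls 8.56% of its genes in all. Whether that table took libraries or lines as replicates is not given in the sources used here, nor whether its fold changes were shrunken. Its calls are thus not like for like with the test on line means.

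Of the other anchors tested in C4-2B, STAT2 (0.30), IRF9 (0.24), IRF1 (0.22) and ISG15 (0.29) had fold changes above 0 and IRF7 (-0.05), USP18 (-0.10) and IFITM3 (-0.02) below 0. MX1 had 0.02, IFIH1 0.12 and IFI27 0.14, and the 95% intervals of these 10 members all spanned 0. The other extremes were UBE2L6, the conjugating enzyme of ISG15 (0.55), ISG20 (0.46) and IFI6 (-0.10). No gene of the other lists was called.

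Some members differed among the 6 C4-2B lines. By limma's F test over lines 16 of 29 tested members were called, against 33.6% of all genes. Its p-values set differences between lines against the spread between libraries of a line, so the libraries, not the lines, are its replicates. IFITM1 differed most by p, with line means from 2.02 TPM in deletion line le5 to 11.3 TPM in control line 2 (adjusted p = 6.68e-05). USP18 did not separate by genotype, with 15.0, 9.44 and 8.55 TPM in deletion lines m, ld9 and le5 and 13.1, 13.4 and 8.94 TPM in control lines 1, 2 and 3 (adjusted p = 0.00122). IFIH1 had 2.15, 1.48 and 1.16 TPM in those deletion lines and 2.04, 1.65 and 0.64 TPM in the control lines (4.16e-04). UBE2L6 had 0.93, 2.44 and 2.58 TPM in the deletion lines and 0.99, 1.65 and 0.47 TPM in the control lines (0.00100). How often control line 3 was the lowest over all genes was not counted. Among the 16 members called it had the lowest mean for 11, with or without its library 1. Without that library, a choice made after seeing the data, the same 16 members and 3 more were called, against 50.6% of all genes, and the line's means were 0.67 TPM for IFIH1, 0.635 TPM for UBE2L6, 10.3 TPM for USP18 and 4.95 TPM for ISG20. PARP14 was high in lines ld9 and le5 and not in m, and ISG20 was low in control line 3, with 4.09 TPM, against 9.38 to 11.9 TPM in all other lines.

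**Figure D5:**
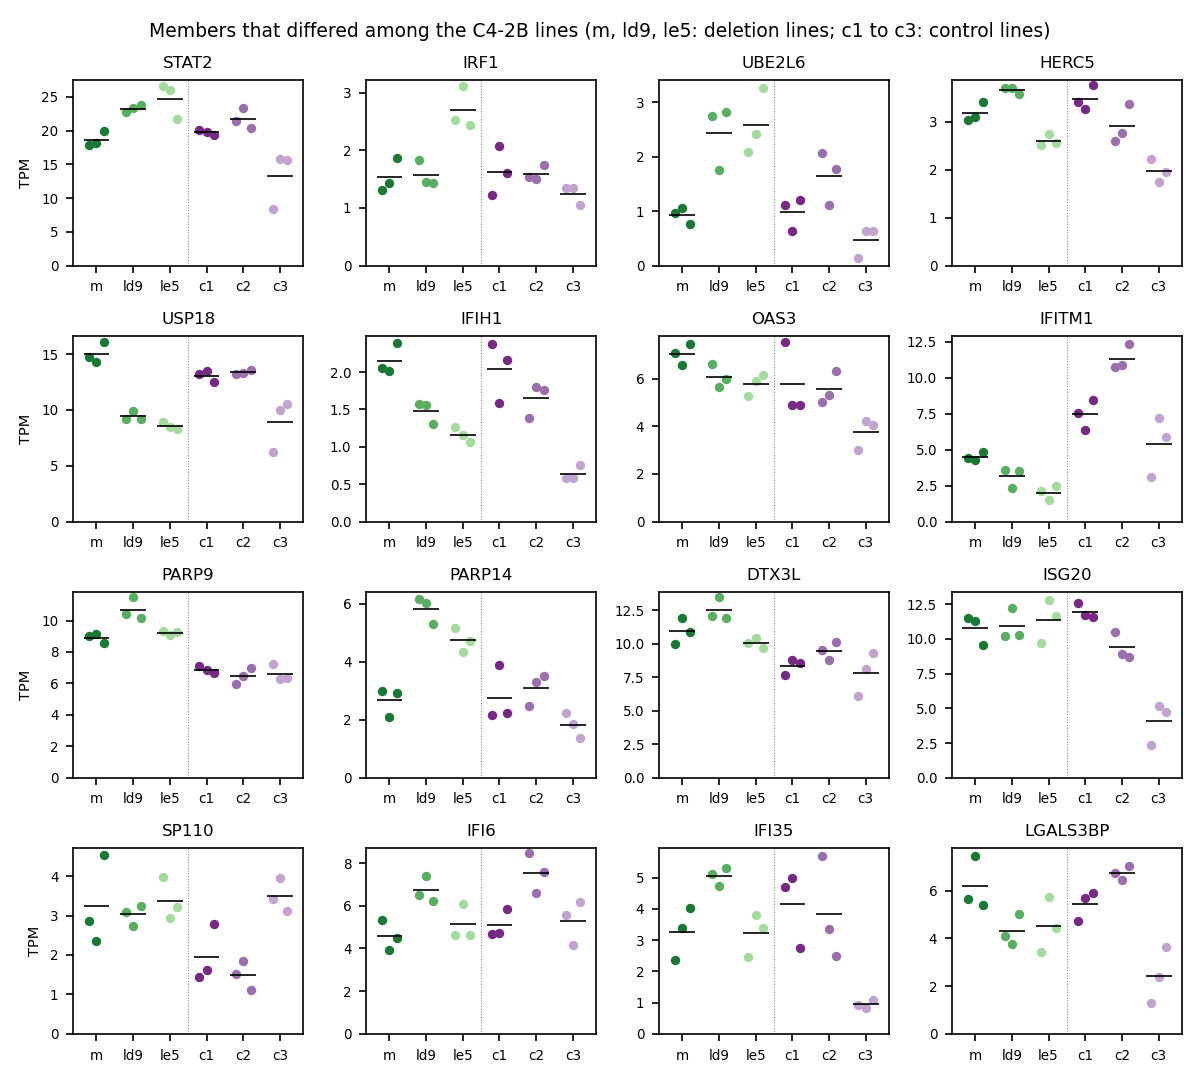
TPM of the 16 members that differed among C4-2B lines, in each library of deletion lines m, ld9 and le5 (left) and control lines 1 to 3 (right), with a line for each mean. PARP9 is at 8.56 TPM or more in every deletion library and at 7.25 TPM or less in every control library. Line means also vary within a genotype, which was not tested on its own.

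The effect of the deletion in RWPE-1 was tested against that in C4-2B by their difference. The test pooled the RWPE-1 libraries with the C4-2B line means, so a gene could pass its filter through RWPE-1 alone. Only 27 members passed the filter within C4-2B, and 15 stayed below 1 TPM in every C4-2B library. For members so low in C4-2B the difference mainly restates the RWPE-1 fold change. None of 44 tested members was called, against 0.971% of genes, and 11 had an unadjusted p under 0.05, against 12.8% of genes. The lowest adjusted p-values in limma's test were those of IRF1 (difference -1.40, adjusted p = 0.121), LGALS3BP (-1.21, 0.147), SP110 (-1.95, 0.161) and UBE2L6 (-1.85, 0.198).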

How the data were processed

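RNA-seq of 36 libraries of RWPE-1 and C4-2B cells was used; the Hi-C matrices were not used here. The authors deposited TPM per gene and library, 1 table per cell line, each column scaled to the same total. The submitters' processing notes name Trimmomatic 0.35, STAR 2.5.2b, featureCounts 1.5.1, RSEM 1.3.0, DESeq2 1.14.1 and GRCh 37, without roles; whether reads were counted by strand is not given in the sources used here. Per the file headers, the authors' deposited DESeq2 tables hold a base mean (a normalized signal), a log2 fold change, its SE and test statistic (used as scores), and p-values.

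From the TPM, limma 3.58.1 in R 4.3.3 was fitted to log2(TPM + 1) over all genes reaching 1 TPM in a number of samples equal to the smaller group's size, with a trended prior and Benjamini-Hochberg adjustment. C4-2B was tested on means of lines, and differences among lines on libraries. The scripts were tested on simulated data. TPM carry no depth, so no counting error is given. Named are 16 members that stand for the roles, members called (the 10 largest where over 10), the 3 largest and smallest fold changes, the 3 most abundant members per line, and up to 6 called genes per other list. Other named members were chosen after their values were seen. The members and lists were chosen with earlier results of these data known. Of 133 symbols in the lists, 131 were matched. Alternatives were another pseudocount, no filter, other scalings, no trended prior, all libraries in one fit, a replicate block, subsets of controls and each library left out.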

Additional observations from a re-analysis of the deposited data

Results flagged for a closer look

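In 8 of 92 sets of libraries tested, the highest library stood apart from the others by Dixon's criterion. Chance marks about 5% of sets. In all 8, each being 1 member in 1 group, the highest was deletion library 3 of RWPE-1, on the log2(TPM + 1) scale. IRF7 was at 3.58 there (next 2.67), MX1 at 4.64 (next 2.54), MX2 at 1.40 (next 0.63) and RSAD2 at 1.94 (next 0.62). PLSCR1, a phospholipid scramblase, was at 5.92 (next 5.34), IFI6 at 6.08 (next 3.78), IFI44L at 5.13 (next 3.36) and EPSTI1 at 2.15 (next 1.43). These members are measured in the same library, so the marks are not independent. Why library 3 was higher was not tested. Without it EPSTI1 still fell (log2 fold change -2.11, adjusted p = 0.0245 by limma).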

How the results depend on the processing

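With the deletion in RWPE-1, 4 members fell, against 3.86% of all genes. With no filter on low values 2 did (1.55% of all genes). With all 18 RWPE-1 libraries fitted together 10 did (4.73%), and with the replicate block 0 (1.72%). It was 40 with controls 1 and 2 only (7.66%), which are high in these members, and 1 with controls 3, 4 and 5 only (4.6%). Without controls 3 and 5, chosen after seeing the data, 40 fell (6.22%). Leaving out each library in turn gave 3 to 30 (3.04% to 5.72%). The median of -1.37 became -3.11 with controls 1 and 2 only and -2.73 without controls 3 and 5. In eGFP cells 24 members rose over controls, against 24.4% of all genes, and 13 did with no filter (15.8%). It was 40 in the fit on all 18 libraries (28.1%), 8 with the replicate block (20.5%) and 9 to 33 with each library left out (19.1% to 24.4%). With controls 1 and 2 only, added after seeing the data, 2 fell (24.3%), the median was 0.98 and STAT2 turned to -0.32. In C4-2B 1 member rose with 18 libraries and the line as a random effect, against 0.115% of all genes. The median there with each line left out ran from 0.086 (without control line 3) to 0.28. The score difference of 0.14 was 0.29 with a pseudocount of 0.1. The cause was not tested. The replicate numbers do not pair the samples, with correlations of same-numbered libraries of -0.18 to 0.14, and C4-2B lines share none. For HOXA13 against eGFP no member was called under any alternative run. Named members were counted once per alternative, so these counts are not of members. For the deletion 50 such values came to pass and 15 to miss the threshold, while 397 stayed the same. For eGFP over control 20 came to pass and 89 to miss it, 451 stayed the same and 1 was reversed. TPM keep no depth, so the precision of low values is unknown.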
